A study of Mus musculus with 4 samples.

Results

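The regions described here are the open-chromatin regions of mouse chromosomes 8 and 12 that had an ATAC-seq peak in at least 2 of 4 peak lists. Peaks from the 4 lists that shared at least 1 bp were merged, which gave 39137 regions, of which 23116 had a peak in 2 or more lists. Of these 23116, 2292 lay on the 2 chromosomes, 1363 on chromosome 8 and 929 on chromosome 12, and they are the members. Both chromosomes were selected on the measured contrast between the genotypes, because their share of the peaks was higher in the knockout lists while few of their sites stood in the deposited differential lists, so peak shares, ranks and presence by genotype are given as descriptions with no test.

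ATAC-seq uses a transposase that cuts and tags accessible DNA, and was applied to 10T1/2 cells, a mouse embryonic fibroblast line. There were 2 libraries from cells with wild-type Ranbp2 and 2 libraries from cells with the Ranbp2 knockout. The knockout was made with CRISPR-Cas9 and a plasmid that also encodes GFP, and all knockout cells descend from 1 sorted cell, so that the effects of the knockout and of that clone's history cannot be told apart. The labels do not say whether the 2 libraries of a genotype came from separate cultures, so the spread between them may be technical.

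Ranbp2, also called Nup358, is a large protein of the cytoplasmic filaments of the nuclear pore, and it binds the small GTPase Ran and acts as a SUMO ligase. Open chromatin marks promoters, enhancers and insulators, and a peak caller lists the places where the cut DNA fragments pile up over the local background. Mouse chromosomes also carry gene arrays in which a family, such as the defensins (small antimicrobial peptides made mainly by epithelia and granulocytes) or the many unnamed predicted genes, has been copied many times with little change, so that short reads from one copy may match another.

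Much of the gain on chromosome 8 lay in such an array, and promoters of that chromosome are shown to make the similarity visible. They are RefSeq promoter windows on build GRCm38.p6, each reaching from 250 bases before to 50 bases after a gene's start. The windows of the predicted genes 4930467E23Rik (chr8:19729326-19729625, plus strand), Gm15319 (chr8:20363153-20363452, minus strand) and Gm21119 (chr8:20614677-20614976, plus strand) were identical over all 300 bases, and that sequence is given once. The window of Gm7697 (chr8:69522872-69523171, minus strand), a predicted gene elsewhere on the same chromosome, matched positions 56 to 283 of that sequence with 220 of 228 bases. Only the matching stretch is given. Capitals mark its 8 mismatches.
4930467E23Rik: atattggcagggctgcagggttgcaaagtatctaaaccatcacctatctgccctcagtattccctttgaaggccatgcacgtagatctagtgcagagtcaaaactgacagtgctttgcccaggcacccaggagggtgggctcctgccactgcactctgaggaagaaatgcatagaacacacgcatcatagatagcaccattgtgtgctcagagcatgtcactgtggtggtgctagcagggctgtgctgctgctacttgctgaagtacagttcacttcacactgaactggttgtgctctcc
Gm7697: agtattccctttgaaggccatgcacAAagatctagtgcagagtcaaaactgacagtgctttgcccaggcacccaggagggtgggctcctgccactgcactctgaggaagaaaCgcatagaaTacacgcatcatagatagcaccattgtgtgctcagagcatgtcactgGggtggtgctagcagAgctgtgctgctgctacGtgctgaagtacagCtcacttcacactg

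Chromosome 12 holds an array of the same kind, and a pair of its promoters shows how close copies can be. The pair was taken as the windows of these genes with the fewest mismatches, so it does not give the similarity of the array as a whole. The windows of Gm9295 (chr12:22674003-22674302, minus strand) and Gm5954 (chr12:24019817-24020116, minus strand) shared 299 of 300 bases, and the capital marks the 1 base that differs.
Gm9295: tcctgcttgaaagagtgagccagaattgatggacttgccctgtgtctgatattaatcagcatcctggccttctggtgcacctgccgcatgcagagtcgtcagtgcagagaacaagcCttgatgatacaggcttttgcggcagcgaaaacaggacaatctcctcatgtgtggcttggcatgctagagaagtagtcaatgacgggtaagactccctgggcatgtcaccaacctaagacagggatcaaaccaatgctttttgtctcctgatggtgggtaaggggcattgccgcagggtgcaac
Gm5954: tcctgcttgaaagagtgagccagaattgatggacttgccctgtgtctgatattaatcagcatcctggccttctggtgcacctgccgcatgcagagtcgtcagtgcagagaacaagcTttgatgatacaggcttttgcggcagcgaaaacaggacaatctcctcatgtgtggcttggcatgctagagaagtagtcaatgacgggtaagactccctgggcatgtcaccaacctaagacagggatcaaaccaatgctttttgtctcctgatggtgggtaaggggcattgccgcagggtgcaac

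A member, chr8:19729404-19729548, covered part of the 4930467E23Rik window, with a −log10 q of 7.35 in wild-type library 1 and 5.54 in knockout library 2 and no peak in the others. Another, chr8:20614691-20614895, covered part of the identical Gm21119 window, with 10.5 and 8.02 in those same 2 libraries. No member overlapped the windows of Gm15319, Gm7697, Gm9295 or Gm5954. Each peak is placed at 1 copy by the authors' mapping, and the sources used here do not give how reads that match several copies were handled.

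The peak lists differed in length, with 33721 and 18511 peaks in wild-type libraries 1 and 2 and 13877 and 24292 peaks in knockout libraries 1 and 2. The lists hold no read counts, so the depth of each library is unknown, and fewer cells with an open site cannot be told apart from a less open site in each cell. The labelled cell type was checked at the ends of marker genes: of 10 fibroblast markers, 8 and 6 had a peak in the wild-type lists and 3 and 4 in the knockout lists, while 0 of 6 epithelial and 0 of 4 endothelial markers had one in any list. Of 4 neural markers, 2 and 1 had a peak in the wild-type lists and 1 in each knockout list, and of 4 immune markers 1 had one, in wild-type library 1. A peak stood at 1 end of Ranbp2 on chromosome 10 in every list, with folds over background of 18.1, 13.02, 8.22 and 14.4, but an open promoter does not show whether the gene is disrupted and so checks no label. Regions in exactly 2 lists, just inside the rule, numbered 656 and had a median best −log10 q of 13.8. Regions in 1 list only, just outside it, numbered 1719 with a median of 7.95, and 1044 of them came from the longest list.

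Chromosome 8 held 5.71% of the peaks in wild-type library 1 (Wilson 95% interval 5.47% to 5.96%) and 5.59% in wild-type library 2 (5.26% to 5.93%). In knockout libraries 1 and 2 it held 6.29% (5.90% to 6.71%) and 6.31% (6.01% to 6.62%). Both knockout values lay above both wild-type values, with means of 6.30% ± 0.0110 and 5.65% ± 0.0868 (SD, n = 2 each) and a difference of 0.652 percentage points. Among the 20 assembled chromosomes with peaks this gain was second to that of chromosome 17, at 0.878 points, and was followed by that of chromosome 12.

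Chromosome 12 held 3.97% and 3.77% of the peaks in the wild-type lists and 4.25% and 4.43% in the knockout lists. The genotypes did not overlap here either, with means of 3.87% ± 0.141 and 4.34% ± 0.129 (SD, n = 2 each) and a difference of 0.472 points. The intervals cover counting error only.

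**Figure D1:**
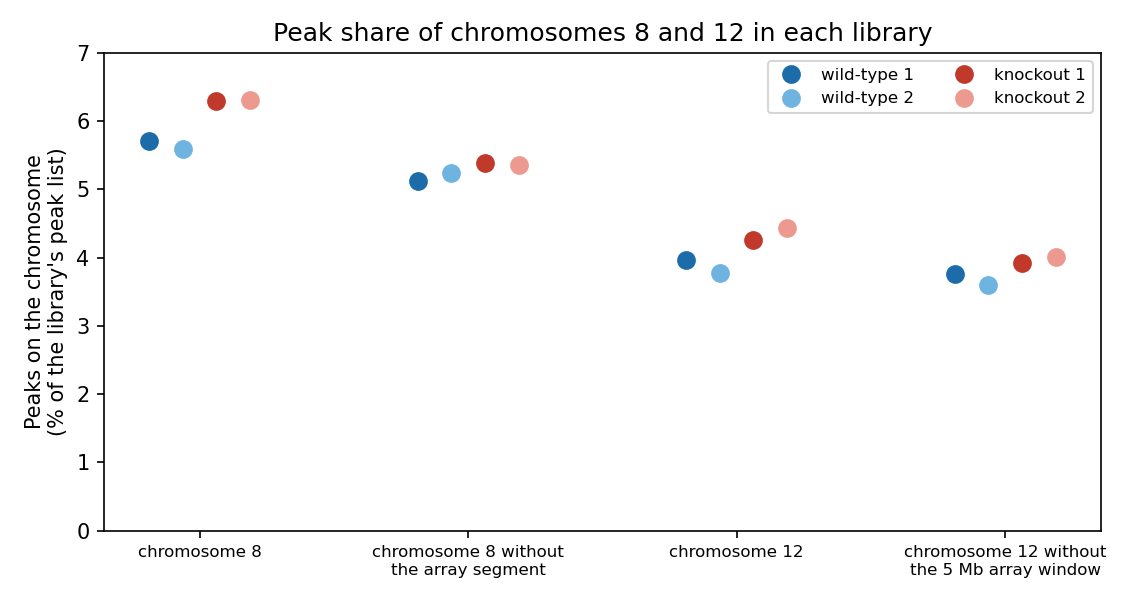
Percent of each library's peaks on chromosomes 8 and 12, with and without 1 array segment of each (19 to 21 Mb of chromosome 8, which held 71.2% of its gain, and 20 to 25 Mb of chromosome 12, which held 39.7%). Each point is 1 library. The difference between genotypes on chromosome 8 shrinks from 0.652 to 0.188 percentage points without its segment, and on chromosome 12 from 0.472 to 0.285.

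The gain on chromosome 8 was concentrated. In bins of 1 Mb, the bin from 20 to 21 Mb held 151 and 45 peaks in the wild-type lists and 99 and 179 in the knockout lists, or 0.448% and 0.243% against 0.713% and 0.737%. Its gain of 0.380 points was the largest of all 2461 bins of 1 Mb with a peak in the genome. The adjoining bin from 19 to 20 Mb stood in place 10, with a gain of 0.0841 points, and the bin from 69 to 70 Mb, which holds Gm7697, in place 8, with 0.0918 points. These bins were picked out after their values were seen.

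Together, 19 to 21 Mb held 197 and 65 peaks in the wild-type lists (0.584% and 0.351%) and 126 and 232 in the knockout lists (0.908% and 0.955%). The knockout list of 13877 peaks thus held 126 of them and the longer wild-type list of 18511 peaks held 65. The gain of 0.464 points was 71.2% of the change of the whole chromosome. Without this segment chromosome 8 held 5.12% and 5.23% in the wild-type lists and 5.38% and 5.35% in the knockout lists, which still did not overlap but differed by 0.188 points. Leaving out the bin from 69 to 70 Mb as well reduced the difference to 0.0960 points.

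The annotation places 57 genes between 19 and 21 Mb, of which 28 are pseudogenes and 23 protein-coding, 13 of these being beta-defensin genes (Defb). Gene starts with a near copy elsewhere are a minority there, but a larger share than on the whole chromosome. A promoter was called near-copy when at least 200 of its bases aligned at 90% identity or more to the promoter of another gene at another place. This held for 5 of 22 promoters (22.7%) at 19 to 21 Mb and 20 of 62 (32.3%) at 15 to 25 Mb. Within the segment it held for 3 of 12 in the bin from 19 Mb and 2 of 10 in the bin from 20 Mb. On all of chromosome 8 it held for 53 of 1442 (3.68%), and in the whole table for 2275 of 32851 (6.93%). Of the 20 at 15 to 25 Mb, 15 stood in the bin from 21 to 22 Mb, outside the segment. That bin held 2 and 0 peaks in the wild-type and 1 and 6 in the knockout lists, a gain of 0.0130 points. Only 8 of the 169 members of the segment were at gene ends. The 22 promoters of the segment were poor in CG dinucleotides, with a median of 1.5 per window, while the promoters on chromosomes 8 and 12 had a median of 8.

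The 1 Mb bins of chromosome 8 were also grouped by whether they hold a near-copy promoter. The 15 bins with a near-copy promoter held 1.25% and 1.02% of the wild-type peaks and 1.84% and 1.77% of the knockout peaks, a gain of 0.671 points. They include the bins from 19 to 21 Mb and from 69 to 70 Mb, picked after their gains of 0.464 and 0.0918 points were seen. The gain of this group therefore largely restates that of the picked bins. In the 94 bins of chromosome 8 with promoters and no near copy the shares were 4.15% and 4.29% against 4.23% and 4.25%. The genotypes overlapped there and the means differed by 0.0192 points. In the 12 bins with no promoter the difference was -0.0389 points. On the other assembled chromosomes the 510 bins with a near-copy promoter also took a larger share in the knockout lists, 23.8% and 23.4% against 22.3% and 22.8%. Their median ranks were 49.9 and 49.4 against 50.9 and 50.7. The 1511 bins there with promoters and no near copy took a smaller share in the knockout lists, 59.9% and 59.8% against 62.8% and 62.9%. That was a mean difference of -2.94 points. The 206 bins with no promoter there had shares of 4.47% and 4.88% against 4.56% and 4.18%, with overlap and a mean difference of 0.302 points. The median ranks of those 206 bins were 46.7 and 48.8 against 45.0 and 43.2. The part of near-identical copies in the gain was not tested.

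**Figure D2:**
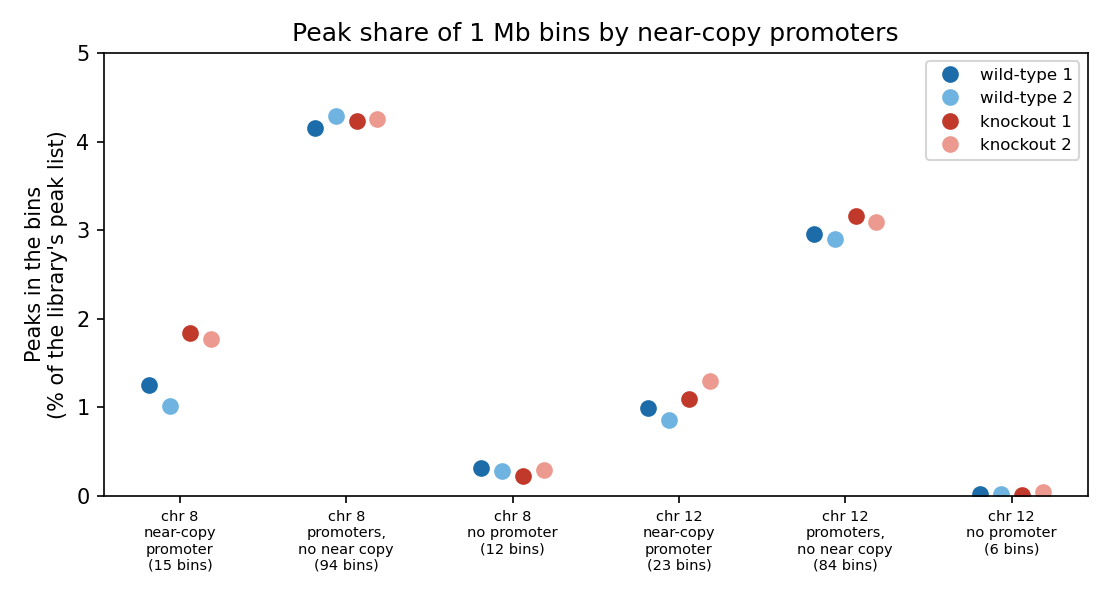
Percent of each library's peaks in the 1 Mb bins of chromosomes 8 and 12, grouped by whether a bin holds a promoter with a near copy elsewhere. Each point is 1 library. On chromosome 8 the knockout points lie above the wild-type points in the near-copy bins and among them in the bins with promoters and no near copy.

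Rank within a library was compared for the 10977 regions with a peak in all 4 lists, so that every library ranked the same regions. Percentile 0 is the lowest and 100 the highest −log10 q, the caller's evidence for a peak. The 635 such regions of chromosome 8 had median percentiles of 45.4 and 48.4 in the wild-type libraries, against 54.0 and 53.4 in the knockout libraries. Both knockout medians were above both wild-type medians, by 6.82 points on average, although the median shift of a single region was 1.40 points. On chromosome 12 the 435 regions had medians of 49.4 and 47.9 against 51.9 and 51.0, a difference of 2.83 points with a median single-region shift of 0.87.

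A region was called higher when both knockout percentiles exceeded both wild-type percentiles, and lower in the opposite case. Chromosome 8 had 183 higher (28.8%) and 124 lower regions (19.5%), and chromosome 12 had 120 (27.6%) and 75 (17.2%). Over all chromosomes 22.7% of regions were higher and 24.97% lower. Chromosome 17 had 34.5% higher and 14.98% lower, and chromosome 1 had 29.1% and 16.4%. Since the chromosomes were chosen on this contrast, nothing is read from these shares.

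Regions at gene ends and elsewhere were compared separately. Gene ends were taken as the stretches up to 1 kb from the first or last base of a protein-coding gene. The 297 gene-end regions had medians of 62.4 and 63.9 in the wild-type and 63.9 and 63.7 in the knockout libraries, so the genotypes overlapped and the means differed by 0.597 points. The other 338 had medians of 30.8 and 34.1 against 42.2 and 40.5, a difference of 8.94 points. A split in the same direction was seen over all chromosomes, with -2.15 points at gene ends and 2.93 elsewhere, and on chromosome 17, with 5.89 and 10.95. Without the 19 to 21 Mb segment that difference was 4.60 points over 299 regions, and that of the whole chromosome was 4.16 points over 593 regions, of which 25.0% were higher and 20.7% lower.

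On chromosome 12 the 197 gene-end regions had medians of 58.0 and 59.6 against 60.8 and 63.6, a difference of 3.39 points. The 238 regions elsewhere had 40.0 and 42.5 against 47.9 and 36.6, so the knockout libraries lay on both sides of the wild-type libraries. Without knockout library 1, whose list was the shortest, 558 regions had a peak in each of the 3 other lists, and their medians were 51.1 and 53.0 in the wild-type and 50.7 in the remaining knockout library, a difference of -1.32 points. Over the 435 regions, knockout library 2 alone was 2.41 points above the wild-type mean, so the direction differed between these sets of regions.

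Peak shares were compared within each class as well. Of all gene-end peaks of a list, chromosome 8 held 5.52% and 5.48% in the wild-type and 5.74% and 5.79% in the knockout lists. Of all peaks elsewhere it held 5.79% and 5.65% against 6.67% and 6.56%, a difference of 0.893 points. Without 19 to 21 Mb the difference was 0.152 points elsewhere and 0.214 points at gene ends. Chromosome 12 held 3.35% and 3.45% of gene-end peaks against 3.70% and 3.50%, and 4.23% and 3.98% of the peaks elsewhere against 4.63% and 4.89%. In each of the 4 comparisons of whole chromosomes both knockout values were higher, including the 2 classes whose ranks overlapped, gene ends on chromosome 8 and regions elsewhere on chromosome 12.

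The 19 to 21 Mb segment had 169 members, and 42 of them had a peak in all 4 lists. Their median percentiles by −log10 q were 4.14 and 11.0 in the wild-type and 52.0 and 40.0 in the knockout libraries. Of the 42, 35 were higher and 1 was lower, and single-region shifts ran from -2.05 to 57.0 points with a median of 30.2. These regions stood near the bottom of both wild-type libraries and in the middle of both knockout libraries.

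Their fold enrichment was low in every library. Fold enrichment is the height of a peak over the background around it, whereas −log10 q also grows with the number of reads. The members of the segment had median fold enrichments of 3.73 and 4.92 in the wild-type and 4.31 and 3.91 in the knockout lists, so the genotypes overlapped. Each median covers only the members with a peak in that list, so the sets of members differ. Of the 169 members, 154 and 63 had a peak in the wild-type and 114 and 157 in the knockout lists. Members on the rest of chromosome 8 had 9.85 and 9.04 against 7.46 and 7.54. At the same −log10 q, taken as the middle 50% of the segment's peaks in each list, the segment's peaks had median folds of 3.54, 4.83, 4.13 and 3.62, while the other peaks of chromosome 8 had 5.64, 6.62, 6.36 and 5.94.

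Ranked by fold enrichment, the 42 regions had median percentiles of 1.94 and 2.41 in the wild-type and 4.61 and 5.31 in the knockout libraries. That difference of 2.78 points compares with 38.5 points by −log10 q, and 22 of the 42 were higher and 1 lower. By fold, then, the regions were near the bottom of all 4 libraries. Over the rest of chromosome 8 the measure mattered less, with a difference of 3.42 points by fold and 4.16 by −log10 q. There, 134 of 593 regions were higher by fold and 129 lower.

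**Figure D3:**
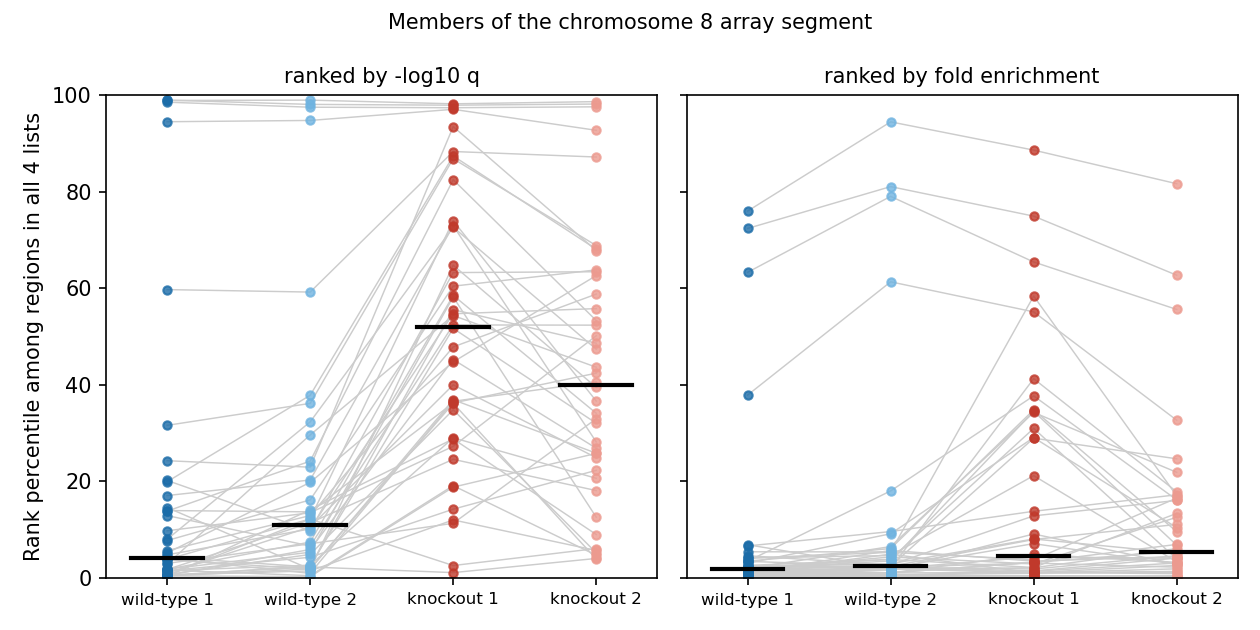
Rank percentile of the 42 members between 19 and 21 Mb of chromosome 8 with a peak in all 4 lists, by −log10 q (left) and by fold enrichment (right). Each point is a region, grey lines join a region across libraries and black bars are medians. By −log10 q the medians are 4.14 and 11.0 in wild-type and 52.0 and 40.0 in knockout libraries, and by fold they lie between 1.94 and 5.31.

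Single members show the range within the segment. The region chr8:19934348-19934539, inside the predicted gene 9530057J20Rik and 0.791 kb from its end, ranked at 24.3 and 22.9 in the wild-type and 93.5 and 67.8 in the knockout libraries, with folds of 6.61 and 5.95 against 8.59 and 6.93. The region chr8:19784497-19785096, 30.9 kb from 4930467E23Rik, was among the strongest of the chromosome and ranked at 98.9, 98.9, 98.2 and 98.6. Its folds of 17.7 and 20.5 in the wild-type libraries exceeded those of 12.6 and 14.4 in the knockout libraries. This strong region stood at the top of all 4 rankings, unlike most members of the segment.

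In fixed windows of 5 Mb, 48 windows held at least 10 members, 25 on chromosome 8 and 23 on chromosome 12. Peak share was higher in both knockout lists in 15 of them (31.2%), 7 on chromosome 8 and 8 on chromosome 12, and lower in 7, 5 and 2 respectively. Over the genome 20.0% of 475 such windows were higher and 29.7% lower. The window from 20 Mb of chromosome 8 gained 0.374 points, and the next largest gains of that chromosome were in the windows from 65 and from 70 Mb, with 0.0942 and 0.0926 points.

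The median rank could be compared in 38 windows with at least 10 regions in all 4 lists. It was higher in both knockout libraries in 14, 7 on each chromosome, and lower in 7, 4 on chromosome 8 and 3 on chromosome 12. Over the genome 22.5% of 386 windows were higher and 26.9% lower. On chromosome 8 the largest shifts were in the window from 20 Mb, with medians of 14.0 and 19.8 against 58.2 and 43.6, and in the window from 15 Mb, with 5.65 and 10.5 against 40.0 and 33.0. At the other extreme, the window from 85 Mb had 54.2 and 51.7 against 47.9 and 35.7, and the window from 105 Mb had 51.5 and 54.7 against 47.0 and 42.0. Chromosome 8 therefore held windows of both directions. The median shifts of a single region in these 4 windows were smaller, at 18.9, 22.8, -6.40 and -1.04 points in that order.

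On chromosome 12 the largest rank shifts were in the adjoining windows from 15 and 20 Mb. In the window from 15 Mb the 13 near-copy promoters all stood in the 1 Mb bins from 18 and 19 Mb. Those bins held 5 and 10 of the window's 58 members. Their peak shares rose by 0.0557 and 0.0221 points, and that of the whole window by 0.0765 points with overlap of the genotypes. The bins from 15, 16 and 17 Mb changed by 0.0118, -0.00530 and -0.00778 points. The window from 15 Mb had medians of 28.5 and 28.9 against 42.3 and 56.0, and the window from 20 Mb had 20.1 and 22.7 against 33.0 and 37.3. The window from 85 Mb had 54.8 and 48.2 against 47.8 and 38.7, and the window from 5 Mb had 38.8 and 40.6 against 33.9 and 36.2. In each of these 4 windows the medians of the genotypes did not overlap. The median shifts of a single region in them were smaller, at 6.85, 3.28, -0.528 and -1.19 points in that order.

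**Figure D4:**
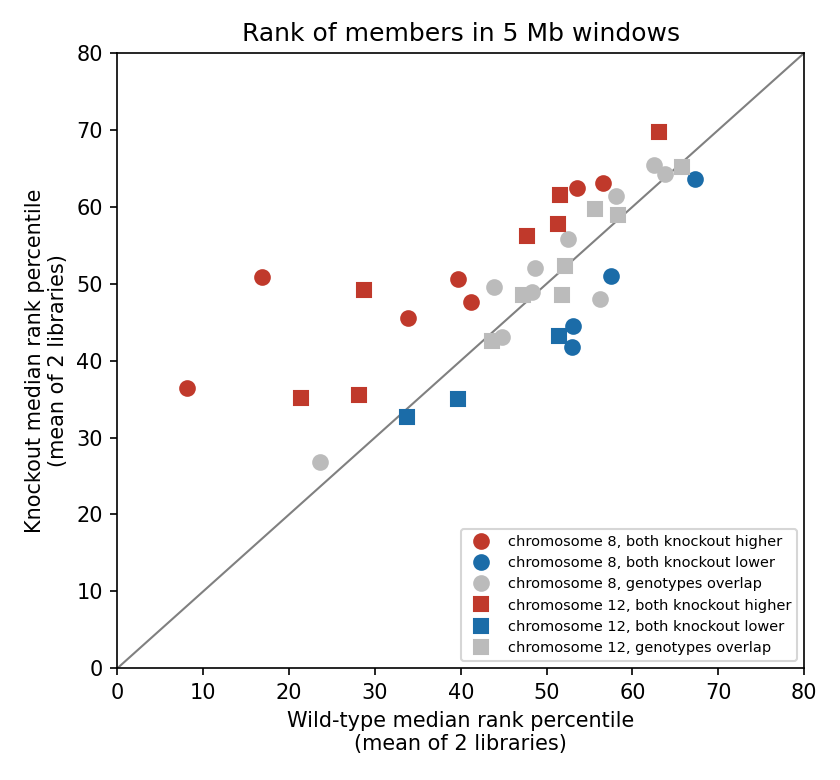
Median rank percentile of the regions in all 4 lists, in 5 Mb windows with at least 10 such regions, in the knockout (vertical) against the wild-type libraries (horizontal). Each of the 38 points is a window, circles for chromosome 8 and squares for chromosome 12, coloured by whether both knockout libraries were above or below both wild-type libraries, and the line marks equal ranks. The windows farthest above the line have low wild-type ranks.

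The window from 20 to 25 Mb of chromosome 12 held 71 and 31 peaks in the wild-type lists (0.211% and 0.167%) and 45 and 104 in the knockout lists (0.324% and 0.428%). Its gain of 0.187 points was 39.7% of the change of chromosome 12. Of its 53 promoters 19 (35.8%) were near-copy, and 35 of its 92 annotated genes are pseudogenes. Without this window chromosome 12 held 3.76% and 3.60% against 3.93% and 4.01%, still without overlap. Its 84 bins of 1 Mb with promoters and no near copy held 2.96% and 2.90% against 3.16% and 3.09%, a difference of 0.196 points, while its 23 near-copy bins gained 0.272 points. All 1 Mb bins of the window from 20 to 25 Mb are among these near-copy bins, and that window was picked after its gain was seen. The gain of the near-copy group therefore in large part restates that of the picked window. In the bins with promoters and no near copy the genotypes did not overlap on chromosome 12, whereas on chromosome 8 they did.

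Presence in the lists depends on their length. As deposited, 1070 members (46.7%) were in all 4 lists and 334 (14.6%) were only in the lists of wild-type library 1 and knockout library 2, the longest of each genotype. The same shares of all 23116 regions were close, at 47.5% and 13.8%. There were 58 members in both knockout lists and no wild-type list (2.53%), 30 on chromosome 8 and 28 on chromosome 12, against 1.61% of all regions. Conversely 218 were in both wild-type lists only (9.51%), against 11.04% of all regions.

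With each list reduced to its 13877 strongest peaks, 1418 regions of the 2 chromosomes were in 2 or more lists. Of these, 144 (10.2%) were in both knockout lists only, 100 of 856 on chromosome 8 and 44 of 562 on chromosome 12, and 93 (6.56%) in both wild-type lists only. Over all chromosomes 6.995% and 8.29% were. The excess on chromosome 8 was in the array: 41 of its 71 regions between 19 and 21 Mb (57.7%) and 59 of the other 785 (7.52%) were in both knockout lists only. Of those 71 regions, 18 and 25 were in the wild-type lists and 70 in each knockout list.

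**Figure D5:**
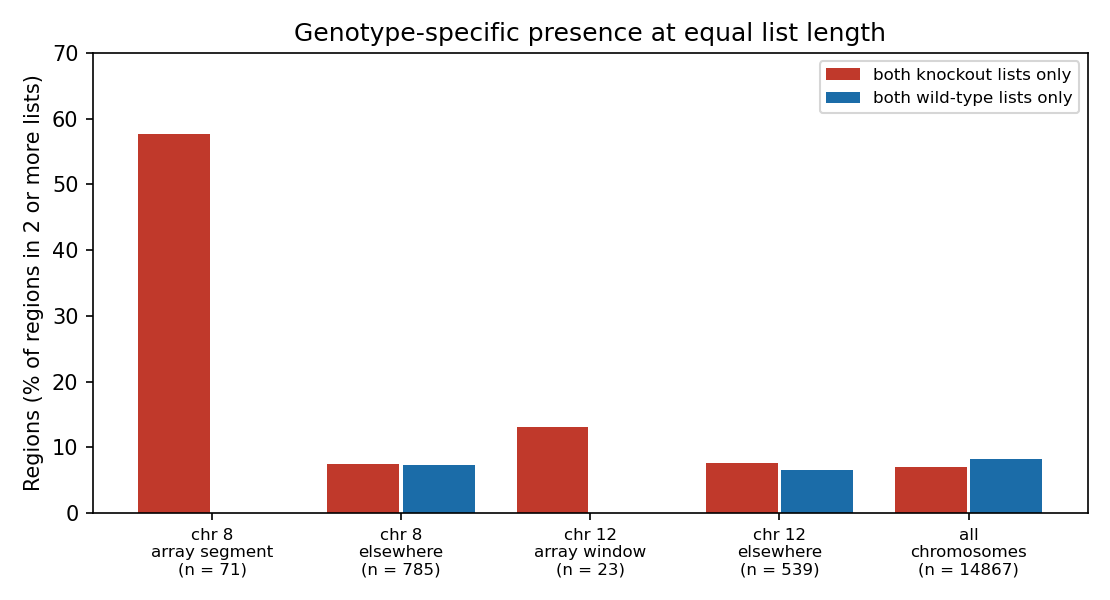
Percent of regions found in both lists of 1 genotype and in neither list of the other, at equal list length. Bars give the 19 to 21 Mb segment of chromosome 8, the rest of that chromosome, the window from 20 to 25 Mb of chromosome 12, the rest of it, and all chromosomes. The knockout bar of the chromosome 8 segment stands at 57.7% and those of the rest of both chromosomes at 7.52% and 7.61%.

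Members listed as differential were few. The authors' deposited tables hold 189 knockout-enriched and 190 wild-type-enriched regions. They overlapped 7 members (0.305%) and 3 members (0.131%), against 0.822% and 0.835% of all 23116 regions. Chromosome 8 had 4 of 1363 regions in the knockout-enriched list and chromosome 17, with the largest share gain, had 32 of 1087. Among the 20 chromosomes, chromosomes 8 and 12 stood in places 2 and 3 by share gain and in places 16 and 15 by the percent of regions in the knockout-enriched list.

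The 4 knockout-listed members of chromosome 8 lay in Nrg1, which encodes the growth factor neuregulin 1, in Fat1, an atypical cadherin, at the end of Tppp3, a tubulin-binding protein, and in Galnt2, an enzyme that starts O-linked sugar chains. The Nrg1 region ranked at 11.7 and 44.2 in the wild-type and 79.9 and 75.2 in the knockout libraries, and the Fat1 region at 4.97 and 6.79 against 22.7 and 34.5. Both therefore stood higher in both knockout libraries. The Tppp3 region ranked at 21.6 and 16.6 against 18.1 and 31.7, with overlap. The Galnt2 region had a −log10 q of 8.21 in wild-type library 1, 15.7 and 39.5 in the knockout libraries, and no peak in wild-type library 2.

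On chromosome 12 the knockout-listed members lay in Eml1, a microtubule-associated protein, in Klc1, a light chain of the motor kinesin, and at chr12:110066479-110066851, with no protein-coding gene within 100 kb. Their percentiles were 11.1 and 10.7 against 60.4 and 28.3 in Eml1, and 3.35 and 0.993 against 4.62 and 21.8 in Klc1. The region far from genes had 37.0 and 46.2 against 89.6 and 72.7. All 3 were higher in both knockout libraries.

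The wild-type-listed members were at Spata4, 47.9 kb from Tarbp1, which encodes an RNA methyltransferase, and 3.38 kb from Irf2bpl, a transcriptional cofactor. The region at Spata4 ranked at 60.1 and 35.2 in the wild-type and 11.5 and 23.2 in the knockout libraries. The region near Tarbp1 ranked at 63.3 and 69.3 against 14.5 and 45.0. Irf2bpl had 71.6 and 66.4 against 60.8 and 74.0, so that its ranks overlapped although its region is listed.

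Members that moved in rank as far as listed regions did were counted, listed or not. Of the 190 merged regions that overlapped the knockout-enriched list, 117 had a peak in all 4 lists and a lower quartile of rank shift of 16.4 points. On chromosome 8, 107 regions were higher with a shift at least that large (16.9% of 635), and 2 of them were listed (1.87%). Over all chromosomes 12.2% of 10977 regions had such a shift and 84 of those 1334 were listed (6.30%). On chromosome 12 there were 54 (12.4%), of which 2 were listed (3.70%), and chromosome 17 had 97 with 9 listed (9.28%) and chromosome 1 had 106 with 10 listed (9.43%). No region of the 19 to 21 Mb segment was listed, although 31 of its 42 had such a shift. On the rest of chromosome 8, 76 had one and 2 were listed (2.63%).

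Fold enrichment set the segment apart from the listed regions. Averaged over the 4 libraries, 21 of the 42 segment regions (50.0%) had a fold below 5, compared with 4 of 117 knockout-listed regions (3.42%) and 215 of all 10977 (1.96%). Elsewhere on chromosome 8 it was 7 of 593 (1.18%), and on chromosome 12 it was 1 of 435 (0.230%). The sources used here do not give the threshold or the read counts behind the deposited lists, and why these members are not listed was not tested.

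The 3 highest-ranked members of each chromosome stood near the top in all 4 libraries. On chromosome 12, chr12:3109872-3110103, with no protein-coding gene within 100 kb, was the highest-ranked region of the chromosome, with folds of 71.5, 74.9, 74.8 and 73.5. The region chr12:97061432-97061787, also without a near gene, had folds of 51.2, 51.1, 52.5 and 53.2, and a region 7.43 kb from Tmem196 had 35.9, 35.5, 35.0 and 33.9. On chromosome 8 the region 15.5 kb from Adgre5, an adhesion receptor of leukocytes also known as CD97, had folds of 53.3, 58.7, 50.3 and 45.9, and a region inside Dlgap2, a postsynaptic scaffold gene, had 25.0, 23.2, 22.4 and 22.2. The third was the region 30.9 kb from 4930467E23Rik given above. In all 3 of chromosome 8 the wild-type folds lay above the knockout folds.

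Among members that were higher in the knockout libraries, the largest shift of chromosome 8 was 11.7 kb from Myo16, an unconventional myosin, with percentiles of 12.3 and 10.7 against 70.9 and 72.4. A region 3.77 kb from Adrb3, the beta-3 adrenergic receptor of adipocytes, had 3.38 and 19.7 against 69.7 and 59.5. The other 3 of the top 5 were the one at 9530057J20Rik given above, in the array segment, and a pair at Gm7697. These stood 0.768 and 0.900 kb from Gm7697, at 31.9 and 25.0 against 91.6 and 77.5, and at 11.8 and 7.33 against 75.2 and 55.6. Of the 3 best-ranked members in the knockout lists only, 2 were also at Gm7697, one inside it and one 28.4 kb away, and the third lay in Sorbs2, an adaptor of the actin cytoskeleton.

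On chromosome 12 the 5 largest shifts upward lay 92.7 kb from Kcnh5, in Atxn7l1, 0.936 kb from Ttc9, in Rad51b and 8.84 kb from Prkch. Kcnh5 encodes a potassium channel, and its region had 42.5 and 15.9 against 88.6 and 74.2. The region in Rad51b, a gene of homologous recombination, had 14.9 and 22.9 against 78.0 and 46.6, and that near Prkch, a protein kinase C, had 25.6 and 21.5 against 68.2 and 62.6. None of these 5 lay in the array window. The best-ranked members in the knockout lists only were in Cipc, an inhibitor of the circadian clock, near LOC108167368 in the array window, and near Atxn7l1.

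On chromosome 8 the 5 largest downward shifts ran from -49.8 to -36.5 points, smaller than the 5 largest upward shifts of 53.0 to 60.2 points. The largest was inside Arhgap10, a GTPase-activating protein, at 46.5 and 58.1 against 4.18 and 0.852. A region in Mast3, a kinase, had 66.8 and 69.2 against 31.5 and 17.5, and one at Exosc6, a subunit of the RNA exosome, had 67.6 and 65.1 against 28.4 and 18.7. The others were 12.98 kb from Atxn1l and the listed one near Tarbp1. None of the 5 lay between 19 and 21 Mb.

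On chromosome 12 a region in Ttll5, a tubulin glutamylase, had 84.7 and 83.2 against 47.2 and 9.94, a shift of -55.4 points. The next were 75.4 kb from Gm46353, 98.8 kb from Snx13, in Trip11, a Golgi protein, and one with no gene within 100 kb. The region in Trip11 had 29.1 and 68.6 against 4.07 and 18.4. Shifts of at least 16.4 points downward without overlap were found in 51 regions of chromosome 8 (8.03%), 2 of them in the wild-type-enriched list, and in 35 of chromosome 12 (8.05%), 0 of them listed. Over all chromosomes 11.7% of regions had one, and 71 of those 1287 were listed.

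The best-ranked members in the wild-type lists only were, on chromosome 8, 78.2 kb from Cdh5, at Irx3, a homeobox gene, and 36.4 kb from Zfp90. On chromosome 12 they lay in Syne2, which encodes a nesprin of the nuclear envelope, in a region with no gene within 100 kb, and 4.09 kb from Prps1l1. The region near Cdh5 had −log10 q values of 66.7 and 31.9 in the wild-type libraries and the one in Syne2 had 50.9 and 17.6. Neither had a peak in a knockout list. Irx3 had another gene-end region with a peak in all 4 lists, at percentiles of 44.9 and 53.6 against 35.5 and 46.9, with overlap.

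Gene ends of 7 groups of genes on the 2 chromosomes were read in the same way. Over all gene-end regions in 4 lists the median shift was -1.88 points, with 808 of 5249 higher and 1405 lower. Of 37 developmental transcription factors, 19 and 14 showed a peak at a gene end in wild-type lists, 12 and 14 did in knockout lists, and 18 had none. Twist1, a regulator of mesenchymal cells, had one in both wild-type lists and in neither knockout list. Of the 11 genes in all lists, 3 were higher (Id2, Yy1 and Irx5) and 1 was lower (Six4), with a median shift of 2.30 points. The end of Yy1, which encodes a zinc finger factor that joins enhancers and promoters, ranked at 81.6 and 83.3 against 92.8 and 91.7, and that of Max, the partner of Myc, at 92.5 and 93.3 against 78.7 and 93.2.

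The AP-1 and immediate early genes, which respond to growth signals, showed gene-end peaks for 8 and 7 of 9 genes in wild-type and for 6 and 7 in knockout lists. Of 6 in all lists, Junb and Fos were higher and Zfp36l1 was lower. Fos had 56.5 and 21.6 against 62.8 and 69.3, Junb had 41.4 and 57.3 against 63.4 and 63.0, and Rhob and Jund overlapped. Of 20 matrix and adhesion genes only 4 were in all lists. Itgb1, the beta-1 integrin, was higher at 25.3 and 32.4 against 51.4 and 53.5, and Piezo1, a mechanically gated channel, was lower at 22.6 and 57.0 against 5.78 and 10.5, as was Tgfb3.

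Of 23 growth factor and receptor signalling genes, 8 were in all lists, with Nampt among the higher ones and Numb lower. Nampt, an enzyme of NAD synthesis that is also secreted, had 83.0 and 78.8 against 86.1 and 89.1, and Numb, an inhibitor of Notch signalling, had 98.8 and 98.0 against 97.5 and 97.7. Among 7 nuclear pore, transport and envelope genes, 5 were in all lists and Nup93, a scaffold nucleoporin, was lower at 57.0 and 59.6 against 41.1 and 51.9. Nutf2, the importer of Ran into the nucleus, overlapped at 97.6 and 97.9 against 96.2 and 97.9.

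Of 16 chromatin and RNA silencing genes, 9 were in all lists, 3 of them higher (Smarca5, Dicer1 and Fancm) and 2 lower (Asf1b and Ncapg2). Smarca5, a chromatin remodelling ATPase, had 92.3 and 86.2 against 96.0 and 96.7, and Asf1b, a histone chaperone, had 98.3 and 97.7 against 94.9 and 96.9. Of 18 heat shock, translation and housekeeping genes, 13 were in all lists and only Mt1, a metallothionein, was higher, at 21.9 and 6.03 against 40.6 and 54.0, with none lower. Across the 7 groups 56 gene ends were ranked, of which 12 were higher and 8 lower. Over all chromosomes 15.4% of 5249 gene-end regions were higher and 26.8% lower. On chromosome 8, 59 of 297 gene-end regions were higher and 57 lower. On chromosome 12, 47 of 197 were higher and 34 lower. Both chromosomes were chosen on this contrast, so nothing is read from the balance of these counts. Genes named here as higher or lower were, apart from those with the highest ranks, picked after their values were seen.

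The base composition of promoters was not used to choose the members. Of 2719 promoter windows on the 2 chromosomes, 691 overlapped a member, and they had a median GC content of 62.7%, against 50.7% for the 2028 that did not. At least 10 CG dinucleotides were found in 92.5% of the former and 28.9% of the latter, and in 43.5% of all 32851 windows in the table. Windows under a member that was higher in both knockout libraries had a median of 65.0% (91 windows), and those under a lower member 63.2% (98 windows). Each of these medians lay within the quartiles of the other set.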

How the data were processed

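ATAC-seq peak lists of 4 libraries were used, 2 from wild-type and 2 from Ranbp2 knockout 10T1/2 cells, grouped by their titles. Per the submitters' processing notes, which state neither roles nor an order, cutadapt, deepTools, Bowtie2, DESeq2, MACS2 and DiffBind 2.2.12 were used with build mm10. The authors deposited 1 narrowPeak list per library, whose score, fold enrichment (a ratio over local background) and −log10 p and q values come from the peak caller and were used here only to describe, rank and filter peaks within a list. The lowest −log10 q in the deposited lists lay just above 3. A pair of differential lists, deposited as positions only, was used beside them. No read counts were used, so depth is unknown and no count test was made.

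Peaks were merged by overlap of at least 1 bp, and regions with a peak in all 4 lists were ranked within each library by their highest −log10 q. Genes were the 21883 protein-coding genes of the RefSeq table for GRCm38.p6, which has the coordinates of mm10, and near-copy promoters were found with BLAST 2.17.0 among the 32851 RefSeq promoter windows. Scripts used Python 3.11.15, pandas 2.3.3 and numpy 2.4.6, and merging and ranking were tested on simulated peaks. The members, gene groups and comparisons were chosen with earlier results of these data known. With 2 libraries against 2, an exact two-sided permutation test could not go below p = 0.333, and none is reported.

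Genes named were those at or nearest to listed members, the 3 highest-ranked members per chromosome, the 5 largest non-overlapping shifts per chromosome and direction, the 3 best-ranked members present in 1 genotype only, the gene-group members with a gene-end peak in 1 genotype only or with the highest ranks, and the 2 windows per chromosome with the largest and the smallest shift. Nearest genes were taken within 100 kb. Alternatives varied the list length, the −log10 q threshold, the ranking measure, the overlap, the windows and the libraries. The segments at 19 to 21 Mb of chromosome 8 and 20 to 25 Mb of chromosome 12 were picked after seeing the data. One gene of the signalling group is not reported here by name.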

Additional observations from a re-analysis of the deposited data

How the results depend on the processing

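The share gain was positive under every alternative run. On chromosome 8 it was 0.778 points at equal list length, 0.765 with the chromosomes that lead a deposited list left out of the total, and 0.590 to 0.713 without one library. Leaving out the array segments, an alternative chosen after seeing the data, gave 0.188, or 0.155 at equal list length, and on chromosome 12 it gave 0.285. Without one library the chromosome 12 gain was 0.372 to 0.572.

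The rank difference of chromosome 8 was 3.17 points by fold enrichment, 3.42 as a mean over regions and 5.68 to 7.06 without one library. On chromosome 12 it was 1.64 as a mean, 1.36 without the leading chromosomes and -1.32 to 3.66 without one library, the negative value without knockout library 1, where 558 regions were ranked in place of 435. Chosen after seeing the data, the median single-region shift was 1.40 and 0.87 on chromosomes 8 and 12, leaving out knockout library 1 over the 435 regions gave 2.41 on chromosome 12, ranks at equal list length gave 4.27 on chromosome 8, and leaving out both segments before ranking gave 4.28 there. The cause of these moves was not tested.

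Members in the knockout lists only numbered 144 and in the wild-type lists only 93 at equal list length. Without one library the counts were 67 to 250 and 238 to 566, and no count exists for a genotype reduced to 1 list. Windows with a higher knockout share numbered 9 when 10 Mb wide, and 18 to 23 without one library. The other alternatives stayed within the spread between libraries or within 1.5 times the count.

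No paired analysis was possible because the results are descriptions from no test, and a shared replicate number links no wild-type library to a knockout library in the labels. Depth is unknown, and how far it limits presence was not tested.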
